A study of Mus musculus with 6 samples.

Results

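The genes described here encode the core proteins of the spliceosome and the SR proteins. They were taken as all probe sets with a single annotated symbol that begins with Snrp, Sf3a, Sf3b, Prpf, Lsm, Cwc, U2af or Srsf. The rule found 104 of the 22626 probe sets tested, and they stand for 52 of 12393 genes. Of these 52 genes, 28 had 1 probe set and 24 had between 2 and 6. Membership followed from the symbols, but the family was selected on measured values, since earlier results of the same mutant against wild type comparison had Cwc22 and Snrpd3 among the genes with lower signals. The differences and calls below are therefore a description of that comparison, and nothing is read from them.

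The samples were erythroblasts, the nucleated precursors of red cells, that had been sorted from mouse bone marrow on CD71, the transferrin receptor. Of the 6 samples, 3 were wild type and 3 came from mice that express a transgene for mutant RPS19, a small ribosomal subunit protein with the change R62W. All were of the FVB/N strain, and each sample was hybridised to 1 Affymetrix array. The sources used here name neither age, nor the promoter of the transgene, nor the number of animals behind a sample, so a p-value here reflects the spread among arrays alone, and that spread may be technical. The study concerns Diamond-Blackfan anaemia, an inherited lack of red cell precursors for which RPS19 is a known gene.

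Introns are cut from messenger RNA precursors by small nuclear ribonucleoproteins (snRNPs), each an RNA with its proteins. A ring of Sm proteins surrounds the RNAs of U1, U2, U4 and U5, and a ring of LSm proteins binds U6. U1 recognises the start of an intron, U2 with the SF3A and SF3B proteins holds the branch point, and U2AF reads the tract and the dinucleotide at the intron's end. The tri-snRNP of U4, U6 and U5 then joins, the Prp19 complex and the Cwc proteins accompany activation and catalysis, and SR proteins bound to exons guide the choice of splice sites. Maturing erythroblasts switch many exons, and SF3B1, U2AF1 and SRSF2 are known as recurrently mutated genes in myelodysplastic syndromes.

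The arrays did not vary equally. Taken over all probe sets, log2 differences between pairs of arrays had an SD of 0.143 to 0.186 within wild type, 0.345 to 0.503 within mutant and 0.382 to 0.429 between the groups. For the 104 members that SD was 0.114 to 0.174, 0.214 to 0.299 and 0.364 to 0.424. Erythroblast markers were present on every array, with Gata1 at 9.07 to 9.79, Klf1 at 10.74 to 11.74 and Slc4a1 at 11.09 to 11.86 (log2), while the Hba-a1 probe set read 2.87 to 3.27 throughout. The summed level of 10 of 13 erythroblast markers lay at 14.06 to 14.16 in wild type against 13.52, 14.195 and 14.23 on mutant arrays 1, 2 and 3, and the median of their 15 probe sets against the wild type mean was -0.66, -0.15 and 0.09. Of these 15, limma called 2 lower and 1 higher (1.39% and 0.941% of all probe sets were). Every mutant array lay below every wild type array in 5 of them (33.3% against 14.7% of all probe sets). In 1 every mutant array lay above (6.67% against 11.4%). Mutant array 1 was thus low in most but not all erythroblast markers, by the brightest probe set of each gene. Epor, at 7.90 against 8.83 to 8.96 in wild type, Ermap, Gata1, Klf1, Rhag, Slc4a1 and Tfrc lay below the wild type range. Alas2 and the dim Hba-a1 lay within it. Hbb-b2 lay above it, at 9.25 on mutant array 1 against 8.13 to 8.54 in wild type. Some of these genes differed on all 3 mutant arrays. Tfrc, which encodes CD71, read 11.45, 11.99 and 11.96 against 12.125 to 12.147 in wild type. Rhag read 9.27, 9.92 and 10.15 against 10.23 to 10.40, and Hbb-b2 read 9.25, 8.87 and 9.09. The remaining erythroblast genes overlapped between the groups by this probe set. Markers of other marrow cells differed among the mutant arrays. The summed level of 8 of 8 neutrophil markers lay at 14.69 to 14.81 in wild type against 15.39, 14.27 and 13.81 on mutant arrays 1, 2 and 3, and that of 6 of 7 B cell markers was 9.34 to 9.44 against 9.32, 11.15 and 10.22. The sums for 4 of 4 eosinophil, basophil and mast cell markers (9.61 to 9.80 against 8.32 to 11.31), 6 of 7 monocyte and macrophage markers (10.38 to 10.52 against 9.53 to 10.68) and 4 of 5 T and NK cell markers (8.35 to 8.54 against 7.91 to 9.39) also spanned the wild type range. Of the 4 T and NK cell probe sets, those of Cd3d and the dim Cd3g lay below wild type on every mutant array. That is 50%, against 14.7% of all probe sets. Nkg7, the brightest of the 4, read 9.25, 7.69 and 7.47 on mutant arrays 1, 2 and 3 against 7.96 to 8.19 in wild type. The sum over 6 of 6 megakaryocyte markers was above the wild type range on all 3 mutant arrays (8.79 to 8.84 against 9.05 to 9.75), although 1 of their 7 probe sets, that of Vwf, was so by itself. The spiked polyadenylated controls read 8.74 to 8.77 in wild type and 11.58 to 13.47 in mutant samples. The Gapdh control read 0.25 to 0.31 higher at its 3' than at its 5' end in mutant samples against -0.09 to -0.05 in wild type. For the actin control that difference was 1.58 to 1.88 in mutant samples against 1.26 to 1.37. For the transferrin receptor control it overlapped, at 1.63 to 1.88 against 1.67 to 1.78. These values move with the groups or within the mutant group, and their part in the differences below was not tested. In such bulk samples fewer cells of a type and less RNA per cell cannot be told apart.

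Lower values prevailed among the member probe sets, in a family selected with the lower signals of Cwc22 and Snrpd3 known. They did not prevail in every list of other pathway genes described below. A lower mutant mean was found for 49.4% of probe sets of further snRNP and spliceosome proteins and 45.5% for snRNP assembly. The share was 41.4% for SR kinases and related RS-domain proteins and 70% for the exon junction complex. A lower mutant mean was found for 68 of 104 member probe sets (65.4%) against 52.5% of all probe sets, and the median log2 difference, mutant minus wild type, was -0.12 against -0.01. Called probe sets, those with an adjusted p under 0.05 by limma over all 22626 probe sets, numbered 12 lower and 1 higher among the members, where 1.39% of all probe sets were called lower and 0.941% higher (2.33% in either direction). The 12 lower probe sets belong to Snrpd3, Prpf39, Lsm2, Cwc22, Prpf19, Srsf1, Srsf10 and Srsf5, and the higher one to Sf3a1. At an unadjusted p under 0.05 there were 30 lower and 6 higher members, against 10.5% and 8.64% of all probe sets. In 39 members every mutant array lay below every wild type array (14.7% of all probe sets), and in 13 every mutant array lay above (11.4% of all probe sets).

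The number of calls depends on single arrays. The main fit takes 1 variance per probe set for both groups. The median SD of all probe sets was 0.090 among wild type and 0.177 among mutant arrays. The part of that in the counts below was not tested. Without wild type replicate 1, 2 or 3, limma called 2 members lower each time, Cwc22 and Snrpd3. Of all probe sets 0.172%, 0.159% and 0.212% were called in either direction. The shares of all probe sets or genes in this paragraph count both directions, except those at an adjusted p under 0.10. Without mutant replicate 1 it called 18 lower (11.2% of all probe sets were called), without mutant replicate 2 it called 5 lower (0.897%), and without mutant replicate 3 it called 12 lower (3.65%). The higher call, of Sf3a1, was lost without any 1 of the wild type arrays and without mutant replicate 2. Array weights gave 21 lower (11.8%), and leaving out probe sets of the _x_at and _s_at types 10 lower (2.08%). With 1 probe set per gene 2 member genes were called lower (0.331% of all genes), and with the mean of a gene's probe sets 3 (0.379%). At an adjusted p under 0.10, 19 members were lower and 1 higher, against 3.5% and 2.62% of all probe sets. The median of the members ran only from -0.15 to -0.09 when any 1 array was left out.

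**Figure D1:**
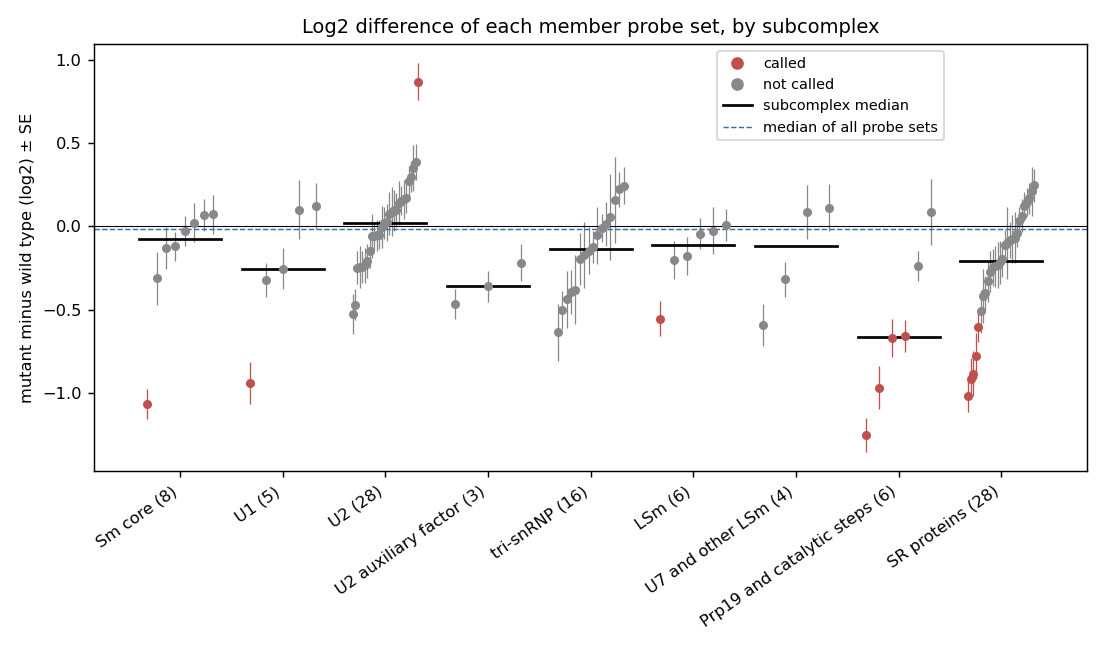
Log2 difference (mutant minus wild type, with its SE) of each of the 104 member probe sets, arranged by subcomplex with the number of probe sets in brackets. Red points are called, black bars are subcomplex medians and the dashed line is the median of all probe sets. The Prp19 and catalytic step group has the lowest median (-0.66), with 3 of its 6 probe sets from Prpf19. U2 lies at 0.02, and the single called rise is in U2.

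Upstream sequences are shown for 4 genes with called probe sets, so that the regions that start these transcripts can be seen beside their levels: a Sm ring protein, a catalytic step factor and an SR protein that were lower, and the U2 protein with a higher probe set. Each is the 250 bases before the RefSeq start site in GRCm38.p6, written 5' to 3' along the gene. Capitals mark matches to the motifs named after them.
Snrpd3: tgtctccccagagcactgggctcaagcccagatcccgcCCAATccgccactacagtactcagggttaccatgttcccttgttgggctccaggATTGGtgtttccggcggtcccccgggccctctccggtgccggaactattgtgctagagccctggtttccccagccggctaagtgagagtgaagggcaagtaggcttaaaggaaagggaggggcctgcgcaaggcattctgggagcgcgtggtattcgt
Cwc22: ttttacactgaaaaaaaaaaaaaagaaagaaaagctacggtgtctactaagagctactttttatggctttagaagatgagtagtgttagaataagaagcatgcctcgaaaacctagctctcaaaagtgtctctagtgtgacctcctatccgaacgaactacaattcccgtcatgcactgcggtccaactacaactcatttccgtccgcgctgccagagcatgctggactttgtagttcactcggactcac
Srsf5: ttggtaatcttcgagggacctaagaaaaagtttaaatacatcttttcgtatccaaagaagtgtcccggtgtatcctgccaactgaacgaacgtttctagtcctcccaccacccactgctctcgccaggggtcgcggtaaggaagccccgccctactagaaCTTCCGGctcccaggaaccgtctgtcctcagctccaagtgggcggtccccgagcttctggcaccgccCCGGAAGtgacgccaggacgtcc
Sf3a1: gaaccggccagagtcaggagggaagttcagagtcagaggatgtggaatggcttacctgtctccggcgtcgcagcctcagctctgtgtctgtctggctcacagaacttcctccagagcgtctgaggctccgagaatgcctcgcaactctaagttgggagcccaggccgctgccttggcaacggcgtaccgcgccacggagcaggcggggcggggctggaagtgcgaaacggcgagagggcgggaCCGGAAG
They lie at chr10:75517792-75518041 on the plus strand, chr2:77946357-77946606 on the minus strand, chr12:80945249-80945498 on the plus strand and chr11:4160104-4160353 on the plus strand. Both strands were searched. The CCAAT box was written as CCAAT and a GATA site as AGATAA. The box read by the erythroid factor Klf1, named CACC box, was written as CCACACCC, and the TATA box as TATAAA. A site of the ETS family was written as CCGGAAG. None of these motifs is contained in another. The Snrpd3 window holds 2 CCAAT matches, those of Srsf5 and Sf3a1 hold 2 and 1 ETS matches, and that of Cwc22 holds 0 of the 5 motifs. RefSeq windows were matched for 45 of the 52 member genes. Among them 20 genes (44.4%) had a CCAAT match and 16 (35.6%) an ETS match, against 37.5% and 7.83% of 27025 genes with such windows. GATA matches were found in 1 gene (2.22% against 11.4% of all), CACC box matches in 3 (6.67% against 3.68%) and TATA matches in 5 (11.1% against 14.3%). These are matches of letters, and no binding was measured.

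The Sm ring proteins, which form the common core of the snRNPs, were measured by 8 probe sets of 5 genes, 1 of them called. Over all probe sets 1.39% were called lower. Snrpd3, which encodes SmD3, read 10.21, 10.07 and 10.14 on wild type arrays 1 to 3 and 9.09, 9.01 and 9.11 on the mutant arrays with probe set 1422884_at. The groups were far apart and the arrays within each lay close together. This probe set fell by 1.07 ± 0.091 (log2, SE), which is 2.10-fold lower. The other probe sets of Snrpd3 did not share the difference. With 1422885_at the arrays read 4.81, 4.78 and 4.67 in wild type and 4.75, 4.93 and 4.79 in mutant samples, a difference of 0.07 (95% confidence interval -0.16 to 0.30). With 1449629_s_at they read 5.08, 5.08 and 5.02 against 5.26, 4.89 and 5.10, a difference of 0.02 (-0.25 to 0.29), which took the sign of -0.09 with array weights. Both overlap between the groups, and both read at a lower signal than 1422884_at on every array, although signals of different probe sets cannot be set against each other as transcript levels.

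The remaining ring proteins differed less. Snrpe (SmE) read 11.73 to 11.81 in wild type and 11.62 to 11.66 in mutant samples, without overlap, at a difference of -0.12 ± 0.085. Snrpb (SmB) differed by -0.13 ± 0.13, with overlap. The 2 probe sets of Snrpg (SmG) had opposite signs, 0.07 for 1448357_at and -0.03 for 1448358_s_at, and overlapped. 1448357_at read 10.35, 10.36 and 10.22 in wild type and 10.22, 10.36 and 10.57 in mutant samples. Snrpn, the imprinted SmN gene of neurons, was dim at 3.48 to 4.24 on all 6 arrays with the probe set that names it alone (-0.31 ± 0.16). Probe sets shared between Snrpn, Snrpd1, Snrpd2, Snrpa or other family genes and a further symbol are not members. There were 9 of them, 0 were called by limma (their differences ran from -0.11 to 0.09), and all 9 overlapped between the groups. Those that name Snurf together with Snrpn were partly bright, at 8.71 to 9.13 and 8.25 to 8.81 over the arrays. The rest of those were dim, at 2.99 to 3.26 and 3.67 to 3.84. The dim probe set that names Snrpn alone thus does not show whether its transcript was low in these samples.

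U1, which pairs with the start of the intron, was represented by 5 probe sets of 3 genes. Prpf39, a U1-associated protein, fell with probe set 1452688_at, which read 5.64, 5.36 and 5.38 in wild type and 4.48, 4.69 and 4.39 in mutant samples (-0.94 ± 0.13). Its other probe sets gave smaller values of both signs. 1428171_at read 7.56, 7.44 and 7.49 against 7.13, 7.48 and 7.12 (-0.25, interval -0.54 to 0.04), and 1428172_at read 6.39, 6.13 and 6.43 against 6.15, 6.79 and 6.31 (0.10, interval -0.32 to 0.52). Mutant array 2 was the highest of the mutant arrays in all 3 Prpf39 probe sets. Without mutant replicate 2 the value of 1428172_at was -0.09. Snrpc, which encodes the C protein of U1, lay at 10.12 to 10.29 in wild type and at 9.81 to 10.01 in mutant samples, a difference of -0.32 ± 0.10 that was not called. Prpf40b read 5.12, 5.31 and 5.40 against 5.44, 5.17 and 5.59 (0.12 ± 0.14), with overlap.

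The U2 proteins, which anchor the branch point, did not lean to one side. Of 28 probe sets of 11 genes, 13 had a lower and 15 a higher mutant mean, and the median was 0.02 (-0.03 with array weights). Without overlap, 7 lay below and 7 above wild type (25% each, against 14.7% and 11.4% of all probe sets). Sf3a1, a subunit of SF3A, rose with probe set 1419087_s_at, which read 5.40, 5.64 and 5.50 in wild type and 6.24, 6.44 and 6.46 in mutant samples (0.87 ± 0.11, or 1.83-fold). Its other probe set, 1449333_at, read 8.07, 7.97 and 7.87 against 7.78, 7.79 and 7.91 (-0.15, interval -0.38 to 0.08) and overlapped between the groups, so the gene was called by 1 of its 2 probe sets alone. By type of probe set, 12 members carry the suffix _s_at, which Affymetrix gives to probes that can match transcripts of more than one gene. The called Sf3a1 probe set is among them, and so is 1452430_s_at of Srsf1, which was called lower. Sf3a3, another SF3A subunit, had both probe sets lower and without overlap. 1432488_a_at read 8.33, 8.35 and 8.25 against 7.99, 7.63 and 7.72 (-0.53 ± 0.12), the lowest U2 value, and 1423811_at differed by -0.21 ± 0.10. Neither was called. Sf3a2 was higher with both of its probe sets, by 0.35 ± 0.14 and 0.08 ± 0.13, again without a call.

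No probe set of the SF3B genes was called. The genes of this paragraph were chosen after their values were seen. Sf3b1, which contacts the branch point, read 9.83, 9.78 and 9.73 in wild type and 9.40, 9.30 and 9.22 in mutant samples with probe set 1418562_at. That difference of -0.47 ± 0.094 did not pass the test (adjusted p = 0.053, limma). The other Sf3b1 probe sets differed by 0.02 and 0.10 and overlapped. All 4 probe sets of Sf3b2 had a higher mutant mean (0.10 to 0.39), and those at 0.27 and 0.39 did not overlap, yet 0 of the 4 were called. Sf3b3 differed by 0.17 ± 0.094, and Sf3b4, Sf3b5 and Sf3b6 lay between -0.25 and 0.14. Snrpa1, a protein of the U2 particle, had probe sets at -0.25, 0.09 and 0.30, of which the outer pair were each free of overlap in opposite directions. 1417352_s_at read 9.34 to 9.43 in wild type and 9.06 to 9.26 in mutant samples, while 1417351_a_at read 10.00 to 10.14 and 10.30 to 10.41. Snrpb2, its partner on the U2 RNA, had 2 of its 3 probe sets free of overlap, at -0.06 and 0.15.

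U2AF, the factor that reads the end of the intron, had all 3 of its probe sets lower, with 0 calls by limma and 2 unadjusted p-values under 0.05. At that unadjusted threshold 10.5% of all probe sets were lower. U2af1, the subunit that recognises the terminal dinucleotide, read 10.85, 10.88 and 10.74 in wild type and 10.41, 10.30 and 10.37 in mutant samples. The arrays separated cleanly, and the difference of -0.47 ± 0.092 lay just beside the threshold (adjusted p = 0.051, limma). U2af2, the subunit that binds the pyrimidine tract, was at most 9.32 and at least 9.23 in wild type and did not overlap with the mutant arrays (-0.36 ± 0.092). U2af1l4, a paralogue of U2af1, read 8.27, 8.21 and 8.09 against 7.89, 7.88 and 8.14 and overlapped on mutant array 3 (-0.22 ± 0.11).

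Tri-snRNP proteins and those that join with it had 16 probe sets of 7 genes, 11 with a lower and 5 with a higher mutant mean. Of these 0 were called by limma, while 4 lower and 0 higher ones had an unadjusted p under 0.05, against 10.5% and 8.64% of all probe sets. Prpf31, which holds U4 RNA, had the lowest value: 1453005_at read 6.30, 6.26 and 6.03 against 5.78, 5.71 and 5.19 (-0.64 ± 0.17). Its other probe set differed by -0.20 ± 0.16 and overlapped. The highest value was that of Prpf6, the bridge between U5 and U4/U6, where 1454789_x_at read 7.53, 7.59 and 7.69 against 7.79, 7.73 and 8.02 (0.24 ± 0.11). A second Prpf6 probe set differed by 0.22 ± 0.11, likewise without overlap. Prpf8, the scaffold of the catalytic centre, differed by 0.01 (interval -0.29 to 0.32), and Prpf3 by -0.05 ± 0.17. Prpf38a, a protein of the activating complex chosen here after its values were seen, read 8.75 to 9.02 against 8.32 to 8.55 (-0.50 ± 0.12). Prpf4b, a kinase of the same stage, had 6 probe sets from -0.44 to 0.16. Mutant array 1 was the lowest of all 6 arrays in 5 of them, for instance 6.71 with 1451909_a_at, where the other mutant arrays read 7.27 and 7.37 and wild type 7.52 to 7.62. The median of the tri-snRNP group stood at -0.41 for mutant array 1 and at -0.10 and -0.08 for the others.

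LSm proteins that ring U6, together with Lsm1 of the decapping ring, had 6 probe sets, 1 of them called (1.39% of all probe sets were called lower). Lsm2 read 7.34, 7.32 and 7.24 in wild type and 6.66, 6.68 and 6.90 in mutant samples and fell by 0.55 ± 0.10. Its groups did not overlap, whereas those of Lsm3 (-0.18), Lsm4 (-0.02), Lsm7 (-0.20) and Lsm8 (-0.04) did. Lsm1 read 7.28, 7.24 and 7.11 against 7.16, 7.19 and 7.29, a difference of 0.01 (interval -0.22 to 0.23) that took the sign of -0.04 when quantile normalisation was repeated without controls. Differences between members of one ring were not tested. Of the LSm proteins outside U6, Lsm14b, of cytoplasmic RNA granules, read 6.26, 6.12 and 6.13 against 5.61, 5.77 and 5.36 (-0.59 ± 0.13, not called). Lsm10, of the U7 snRNP that processes histone messages, read 7.13 to 7.24 against 6.70 to 6.95 (-0.32 ± 0.10, not called). Lsm12 differed by 0.08 ± 0.16. Lsm14a read 2.09, 2.16 and 2.15 in wild type and 2.54, 2.15 and 2.05 in mutant samples. It was among the 3 members whose mean lay under the lower quartile of all probe sets (3.57). Its value of 0.11 turned to -0.03 without mutant replicate 1. Of these 4 genes outside U6, 0 were called by limma and 2 were lower at an unadjusted p under 0.05, against 10.5% of all probe sets.

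Factors of the Prp19 complex and of catalysis had the lowest median of the family, -0.66 over 6 probe sets of 4 genes. Of these probe sets 4 were called, all lower, where 1.39% of all probe sets were called lower. Those 4 were the 3 probe sets of Prpf19 and that of Cwc22, whose lower signal was known when the family was selected. The median is thus mostly that of Prpf19 and does not describe the group as a whole. Cwc22, which ties the spliceosome to the exon junction complex, read 7.92, 7.79 and 7.98 in wild type and 6.67, 6.54 and 6.71 in mutant samples with its 1 probe set. It fell by 1.25 ± 0.10, or 2.39-fold, the largest difference among the 104 members. Prpf19, the ubiquitin ligase that gives the complex its name, was the only gene of the family called by all of its probe sets where it had more than 1. Probe set 1460633_at read 6.78, 6.56 and 6.34 against 5.66, 5.49 and 5.62 and fell by 0.97 ± 0.13. The brighter 1449635_at read 10.16, 10.08 and 9.92 against 9.53, 9.27 and 9.35 and fell by 0.67 ± 0.11. With 1419839_x_at the arrays read 10.23, 10.24 and 10.13 against 9.65, 9.46 and 9.51, a fall of 0.66 ± 0.097. In all 3 the groups did not overlap. Cwc15, a partner of the same complex, read 8.74 to 8.87 against 8.54 to 8.61 (-0.24 ± 0.090, not called). Cwc27, a cyclophilin-type protein, read 6.06, 5.98 and 6.05 against 6.57, 6.03 and 5.73, so that its mutant arrays lay on both sides of wild type, and its value of 0.09 ± 0.20 turned to -0.14 without mutant replicate 1.

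**Figure D2:**
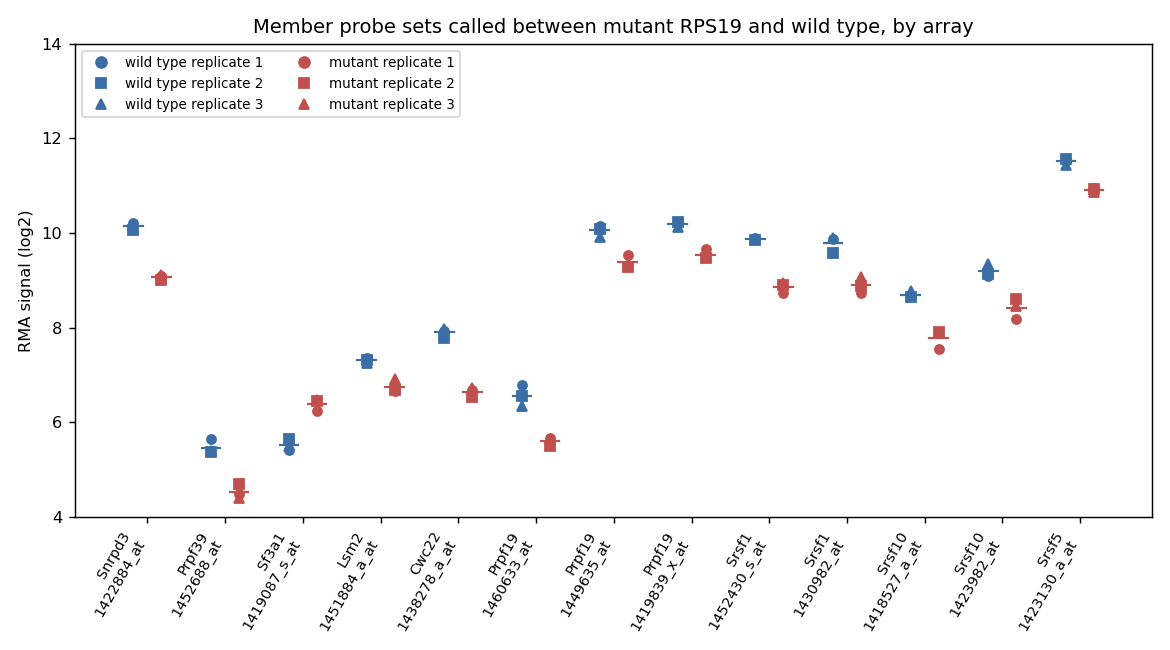
RMA signal (log2) of the 13 called member probe sets on each array, wild type in blue and mutant in red, with the replicate as the symbol and bars at the group means. Cwc22 falls from 7.89 to 6.64 and Snrpd3 from 10.14 to 9.07, whereas the Sf3a1 probe set rises from 5.51 to 6.38, and in none of the 13 do the groups overlap.

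SR proteins, which bind exonic enhancers and recruit U1 and U2AF, had 28 probe sets of 9 genes. A lower mutant mean was found for 21 of them and a higher one for 7, and 5 were called lower and 0 higher by limma (unadjusted p-values under 0.05 numbered 9 and 1). Of all probe sets, 1.39% were called lower and 0.941% higher, and 10.5% and 8.64% had an unadjusted p under 0.05. Srsf1, the founding SR protein, had 6 probe sets, all lower. 1452430_s_at read 9.89, 9.86 and 9.86 in wild type and 8.72, 8.89 and 8.94 in mutant samples and fell by 1.02 ± 0.097. 1430982_at read 9.88, 9.58 and 9.88 against 8.73, 8.89 and 9.07 and fell by 0.89 ± 0.13. The other 4 probe sets of Srsf1 were not called and differed less. 1453722_s_at read 10.36, 10.21 and 10.71 against 9.78, 10.15 and 10.10 (-0.42, interval -0.80 to -0.04), and 1428099_a_at read 11.76, 11.89 and 12.13 against 11.59, 11.76 and 11.72 (-0.24, interval -0.52 to 0.05). 1434972_x_at, at 11.77, 11.88 and 12.16 against 11.58, 11.82 and 11.77, differed by -0.22 and overlapped. 1428100_at read 8.17, 8.19 and 8.32 against 7.86, 8.39 and 8.22, a difference of -0.08 (interval -0.42 to 0.27) that turned to 0.07 without mutant replicate 1 and with array weights.

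Srsf10, an SR protein that can repress splicing, was lower with all 4 of its probe sets, each without overlap between the groups. 1418527_a_at read 8.67, 8.64 and 8.77 against 7.54, 7.91 and 7.89 and fell by 0.91 ± 0.13, and 1423982_at read 9.10, 9.13 and 9.34 against 8.17, 8.60 and 8.46 and fell by 0.78 ± 0.14. Mutant array 1 was the lowest in both. The uncalled pair read 8.70, 8.76 and 8.81 against 8.19, 8.55 and 8.54 (1418526_at, -0.33 ± 0.12) and 8.07, 8.04 and 8.13 against 7.54, 8.01 and 7.99 (1449121_at, -0.23 ± 0.14). Srsf5, a further classical SR protein, had 1 probe set, which read 11.55, 11.57 and 11.44 against 10.96, 10.94 and 10.86 and fell by 0.60 ± 0.091.

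Srsf9 gave the highest SR value, at 9.04, 9.05 and 8.94 in wild type and 9.13, 9.37 and 9.28 in mutant samples (0.25 ± 0.10, not called). The remaining SR genes, picked with their values in view, were not called. Srsf2 had 4 probe sets from -0.51 to -0.08, all lower, and 1415807_s_at read 9.34 to 9.62 against 8.80 to 9.14. Srsf3 had 6 probe sets from -0.40 to 0.06, and 1416152_a_at read 8.78 to 8.98 against 8.33 to 8.56 while the brightest, 1416150_a_at, differed by -0.04 (interval -0.24 to 0.16). Srsf6 had values of -0.07, 0.03 and 0.17, Srsf4 of 0.21 ± 0.15, and both probe sets of Srsf11 were higher without overlap by 0.12 and 0.14.

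Disagreement between probe sets of one gene was common in the family and in the whole table. Of the 24 member genes with several probe sets, 12 had both signs (50%), against 52.8% of 4956 genes, while 8 had only lower (33.3% against 25.1%) and 4 only higher values (16.7% against 22.2%). The genes with both signs were Prpf39, Prpf4b, Sf3a1, Sf3b1, Sf3b4, Sf3b6, Snrpa1, Snrpb2, Snrpd3, Snrpg, Srsf3 and Srsf6. Those with only lower values were Prpf19, Prpf31, Prpf38b, Sf3a3, Sf3b5, Srsf1, Srsf10 and Srsf2, and those with only higher values were Prpf6, Sf3a2, Sf3b2 and Srsf11. Values reached 0.3 on both sides of 0 in 0 of these 12 genes and in 139 of the 2615 genes with both signs in the whole table. Snrpa1 came nearest to that, at -0.25 and 0.30. The widest gaps between probe sets of a gene were 1.14 for Snrpd3, 1.04 for Prpf39, 1.02 for Sf3a1 and 0.94 for Srsf1 (log2), and the median gap was 0.35 against 0.27 over all genes. The positions of the probes on the transcripts were not used here.

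**Figure D3:**
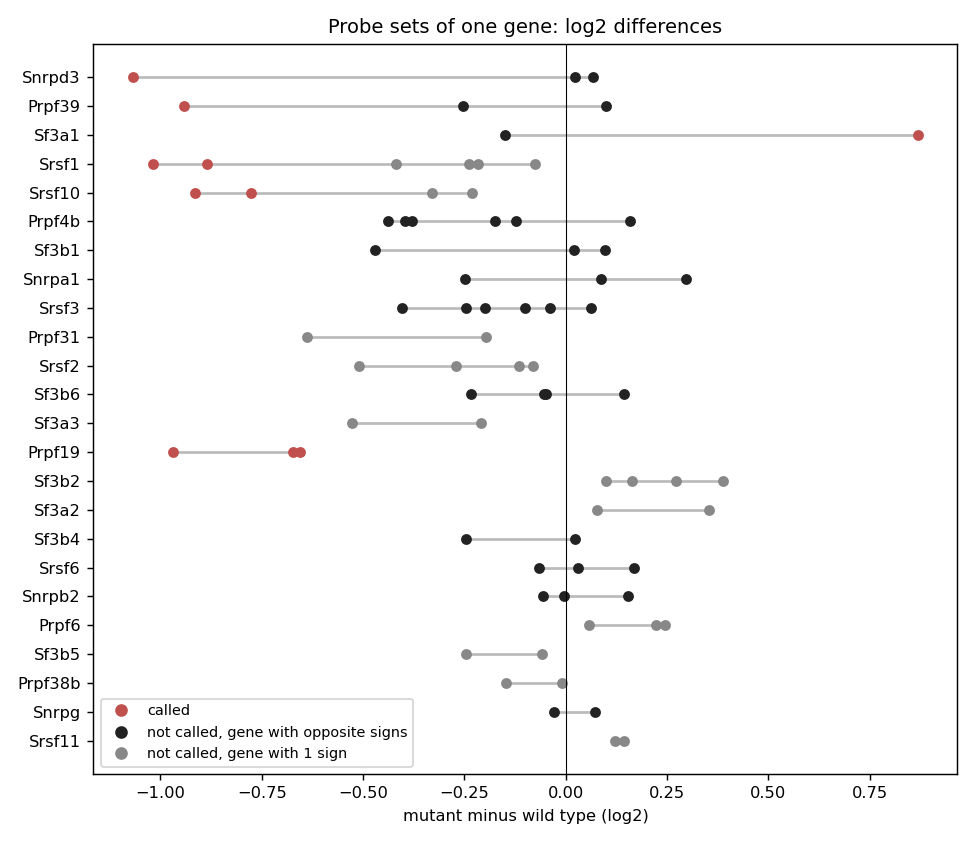
Log2 differences (mutant minus wild type) of the probe sets of each of the 24 member genes with several probe sets, 1 row per gene and ordered by the gap between its lowest and highest value. Snrpd3, Prpf39 and Sf3a1 have gaps above 1 with only 1 called probe set each, whereas the 3 probe sets of Prpf19 are all called.

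Across the mutant arrays the family kept its direction but not every subcomplex did. The median of the members against the wild type mean was -0.16, -0.11 and -0.08 on mutant arrays 1, 2 and 3, where all probe sets gave -0.04, -0.02 and 0.01. The Prp19 and catalytic group, with 3 of its 6 probe sets from Prpf19, was low on all 3 (-0.54, -0.76 and -0.70). U2AF was low on all 3 as well (-0.30, -0.39 and -0.42). SR proteins lay at -0.35 on mutant array 1 and at -0.11 and -0.14 on the others. The family median was lowest on mutant array 1, which also had the low erythroblast sum, and the part of that in these values was not tested. The Sm core gave -0.12, -0.14 and 0.03, and U2 gave 0.02, -0.06 and 0.08. Of the 104 members, 47 were lowest on mutant array 1 among the mutant arrays (42.1% of all probe sets were). A member's SD had a median of 0.080 among wild type and 0.134 among mutant arrays, against 0.090 and 0.177 over all probe sets.

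**Figure D4:**
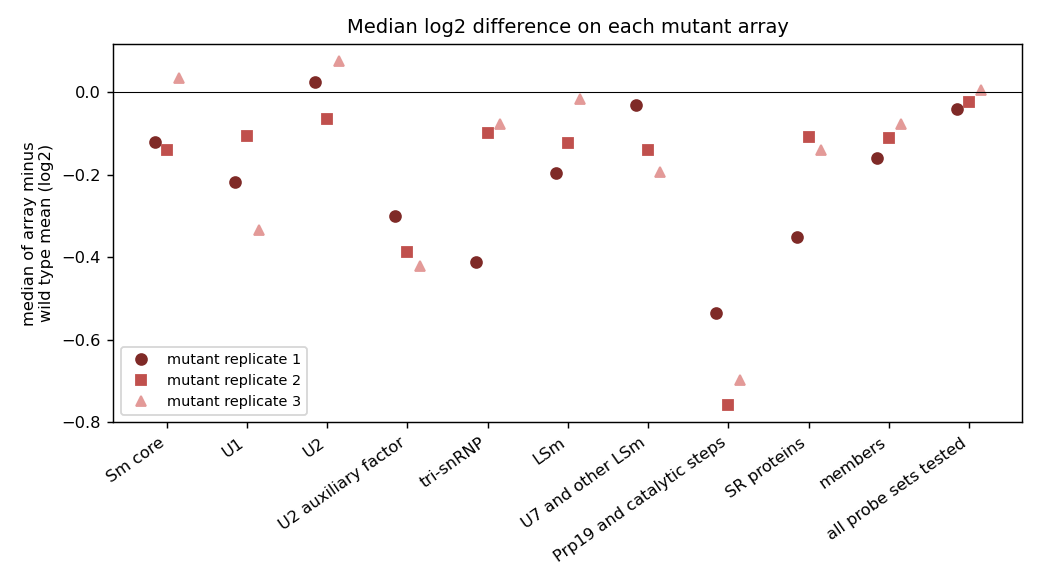
Median over the probe sets of each subcomplex, of all members and of all probe sets tested of the log2 signal on 1 mutant array minus the wild type mean. The Prp19 and catalytic group, with 3 of its 6 probe sets from Prpf19, lies between -0.76 and -0.54 on the 3 arrays. The tri-snRNP and SR groups are lowest on mutant array 1.

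Other genes of the pathway were taken from lists of its known proteins. Of 49 further snRNP and spliceosome genes, 41 were measured by 87 probe sets, of which 3 were called lower and 0 higher by limma (unadjusted p-values under 0.05 numbered 14 and 10). Of all probe sets, 1.39% were called lower and 0.941% higher, and 10.5% and 8.64% had an unadjusted p under 0.05. Those shares also stand beside the lists that follow. The median of these 87 probe sets was 0.01. Snrnp70, a U1 protein that binds the U1 RNA, read 9.46, 9.39 and 9.19 against 8.73, 8.81 and 8.76 and fell by 0.57 ± 0.10. Snw1, a factor of the activated spliceosome, fell by 0.59 ± 0.097 with 1 probe set while its other probe set differed by 0.07. Luc7l2, which associates with U1, fell by 0.55 ± 0.10 with 1 probe set, while its other 4 had values of both signs without a call, the largest of them on a probe set that read 8.13 to 8.22 in wild type and 8.57, 9.41 and 9.51 in mutant samples. Of 16 genes of snRNP assembly, 12 were measured by 22 probe sets. Wdr77, the partner of the methyltransferase Prmt5 that modifies Sm proteins, fell by 0.57 ± 0.10 with 1 probe set, and its others differed by 0.03 and 0.40. Strap, of the SMN complex, rose by 0.72 ± 0.12 with 1 probe set, and its others differed by -0.22 and 0.03. SR kinases and related RS-domain proteins (13 genes, 29 probe sets) had 0 calls by limma, with 5 lower and 5 higher at an unadjusted p under 0.05 and a median of 0.06. Of 10 exon junction complex genes, to which Cwc22 connects, 5 were measured by 10 probe sets, with 0 calls by limma and 3 lower and 3 higher at an unadjusted p under 0.05. Whether the members differ from these lists was not tested.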

How the data were processed

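Messenger RNA was measured with 1 Affymetrix array for each of 3 wild type and 3 mutant RPS19 samples. The authors deposited log2 signals. The submitters' processing notes list GCOS, Affymetrix Expression Console and RMA; versions and the set of arrays normalised jointly are not stated there. RMA corrects background, quantile normalises arrays and summarises probes, so values are relative to the other arrays. Of 22690 probe sets, 64 controls were left out. The platform annotation of 2016 gave 1 symbol for 20380 of the 22626 tested, several for 691 and none for 1555, and Entrez identifiers of all 104 members matched RefSeq. No filter on low values was applied, so every member was tested.

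The mutant against wild type fit used R 4.3.3 and limma 3.58.1, with lmFit and then eBayes, two-sided and without covariates, over all tested probe sets, with Benjamini-Hochberg adjustment and calls at an adjusted p under 0.05. Adjusted p-values come from that fit unless an alternative setting is named. The fit was tested on simulated data with the same spread in both groups, so that test does not cover the unequal spread of these arrays. Summaries and plots used Python 3.11.15, pandas 2.3.3 and matplotlib 3.10.9. Subcomplexes, lists and members were chosen with earlier results of these data known. Values in every array are given for called probe sets, for the other probe sets of their genes, for the largest rise and fall of each subcomplex, and for genes with values of at least 0.3 on both sides of 0, of which there were 0. Any further gene was picked with its values in view or is given by range. The number of arrays limits the precision. Alternatives covered the variance prior, array weights, normalisation, centring, filters, the replicate number as a block, the threshold, 1 value per gene and leaving out each array.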

Additional observations from a re-analysis of the deposited data

Results flagged for a closer look

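Control probe sets, which were outside the comparison, read higher on the mutant arrays. The polyadenylated spike controls, added to the RNA before labelling, differed by 4.07 (mutant minus wild type mean log2), with 11.58, 13.43 and 13.47 on mutant arrays 1, 2 and 3 against 8.74 to 8.77 in wild type. The hybridization controls, added after labelling, differed by 1.11, with 10.29 to 10.72 against 9.29 to 9.41. Their part in the differences of the splicing genes was not tested.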

How the results depend on the processing

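With 12 lower and 1 higher call among the members as reported, array weights gave 21 and 2 (2667 calls over all probe sets), an adjusted p under 0.10 gave 19 lower, 1 probe set per gene gave 2 and 0, the mean of a gene's probe sets gave 3 and 0, and leaving out _x_at and _s_at probe sets gave 0 higher, since the Sf3a1 probe set is one of them. Leaving out single arrays gave 2 to 18 lower and 0 to 1 higher, 66 to 71 members with a lower mean (68 as reported) and 10 to 14 genes with both signs (12 as reported). Without _x_at and _s_at probe sets 7 of 17 genes had both signs. The replicate number as a block gave 3 lower (Cwc22, Snrpd3 and 1 probe set of Srsf1), 1 higher and 112 calls over all probe sets. Deviations of same-numbered samples correlated by 0.051, 0.028 and 0.056, under the 0.1 taken to mark a pairing, although each sample correlated best with its own number, a hint from the data and not the design. No label pairs the samples, and whether same-numbered samples belong together is not known.

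The U1 median moved to -0.13 with array weights and that of U7 and other LSm genes to -0.32 without dim probe sets, which removed Lsm14a. The SR protein median (-0.21 as reported) was -0.0915 without _x_at and _s_at probe sets, -0.1238 with array weights and -0.1431 with repeated quantile normalisation, and that of the tri-snRNP (-0.135) was -0.0695 with array weights. The U2 median (0.0223) turned to -0.034 with array weights, and the Sm core median (-0.0744) to 0.0083 with repeated quantile normalisation and was -0.0283 without dim and -0.1289 without _x_at and _s_at probe sets. Leaving out single arrays moved the medians over -0.15 to -0.09 for the members, -0.17 to -0.06 for LSm, -0.73 to -0.62 for Prp19 and catalytic steps, -0.23 to -0.15 for SR proteins, -0.09 to -0.02 for the Sm core, -0.28 to -0.19 for U1, -0.005 to 0.04 for U2, -0.40 to -0.33 for U2AF, -0.17 to -0.08 for U7 and other LSm and -0.17 to -0.03 for the tri-snRNP. Among named probe sets, signs turned for Lsm1 with array weights (-0.0183) and repeated quantile normalisation (-0.0414), for Srsf1 1428100_at (0.0715) and for Snrpd3 1449629_s_at (-0.0864) with array weights. With 1 array left out, Lsm1 ran from -0.043 to 0.0455, Cwc27 from -0.14 to 0.28, Srsf1 1428100_at from -0.19 to 0.0731, Snrpd3 1449629_s_at from -0.0654 to 0.12, Snrpg 1448357_at from -0.0227 to 0.16, Prpf39 1428172_at from -0.0871 to 0.23 and Lsm14a from -0.0337 to 0.21. All 13 called probe sets kept their direction under every setting that fitted them as probe sets. The fits with 1 value per gene are not among these settings, and the fit without _x_at and _s_at probe sets held 10 of the 13. The highest adjusted p over those settings was 0.046 for Snrpd3 and 0.042 for Cwc22 and lay between 0.067 and 0.24 for the other 11 by limma. Causes of the other moves were not tested.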
